A study of Mus musculus with 22 samples.

Results

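The genes described here were 7 genes linked to interstitial cells of the gut muscle: Kit, Kitl, Ano1, Etv1, Pdgfra, P2ry1 and Kcnn3. They were found by exact match of the gene symbol in the deposited count table, 1 row each, out of 46078 genes. All 7 passed the filter on low counts in every comparison. Gene expression was measured by sequencing of poly(A) RNA from whole distal colon of 22 mice. C57BL/6 mice (n = 8, 4 males and 4 females, 14 weeks old) served as controls. Winnie mice (n = 7, 3 males and 4 females, 14 weeks old) carry a missense mutation in Muc2, the gene of the main secreted mucin of the colon, and develop colitis spontaneously. Winnie-Prolapse mice (n = 7, 4 males and 3 females, 18 weeks old) were Winnie mice labelled as having prolapse. No other treatment was given in the labels. Age and prolapse cannot be told apart in this design.

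Interstitial cells of Cajal generate the electrical slow waves that pace the contractions of gut smooth muscle. They depend on the receptor tyrosine kinase KIT and on its ligand, stem cell factor, which Kitl encodes. Ano1 encodes the calcium-activated chloride channel that carries their pacemaker current, and Etv1 encodes an ETS transcription factor active downstream of KIT. A second type of interstitial cell carries the receptor PDGFRα, encoded by Pdgfra. In these cells purines released from enteric nerves act on the receptor P2Y1, encoded by P2ry1, and open the small-conductance calcium-activated potassium channel SK3, encoded by Kcnn3, which relaxes the muscle. None of the genes is limited to these cells: mast cells also carry KIT, secretory epithelial cells express Ano1, and mucosal fibroblasts carry PDGFRα.

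The genes lie on 5 chromosomes of the mouse build GRCm38. Kit is at chr5:75574916-75656722 and Pdgfra, upstream of it on the same strand, at chr5:75152292-75198215. P2ry1 is at chr3:61002795-61008982 and Kcnn3 at chr3:89520164-89675132. Kitl is at chr10:100015630-100100416, Etv1 at chr12:38779380-38870484 and Ano1, the only one of the 7 on the minus strand, at chr7:144588549-144751974. All are protein-coding gene models of GENCODE M21. The deposited count table labels Kcnn3 as a retained intron and the other genes as protein-coding. Exons of P2ry1 overlap the antisense model Gm37035, which held from 0 to 8 counts per library, and exons of Pdgfra overlap the models Gm42802 and Gm42803 on the other strand. The strand setting of the counting was not given in the sources used here, so reads of such pairs cannot be told apart.

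Bases before the annotated starts of Kit, Kcnn3 and Pdgfra are shown because Kit and Kcnn3 were the genes that passed the threshold in Winnie-Prolapse and Pdgfra was the gene that moved the other way. The sequences are from RefSeq on GRCm38.p6, plus strand, at chr5:75574737-75574915 for Kit, chr3:89519914-89520163 for Kcnn3 and chr5:75152001-75152250 for Pdgfra. Capitals mark the letters GGGCGG, known as the Sp1 box, on either strand.
Kit: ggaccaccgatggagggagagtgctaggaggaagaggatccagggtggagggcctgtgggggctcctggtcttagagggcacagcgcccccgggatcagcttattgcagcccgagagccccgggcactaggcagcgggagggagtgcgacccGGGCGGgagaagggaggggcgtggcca
Kcnn3: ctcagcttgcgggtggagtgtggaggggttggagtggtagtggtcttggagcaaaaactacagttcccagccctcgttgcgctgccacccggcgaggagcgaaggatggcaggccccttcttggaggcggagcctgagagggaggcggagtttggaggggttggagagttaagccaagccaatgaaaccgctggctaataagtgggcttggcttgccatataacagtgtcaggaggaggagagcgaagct
Pdgfra: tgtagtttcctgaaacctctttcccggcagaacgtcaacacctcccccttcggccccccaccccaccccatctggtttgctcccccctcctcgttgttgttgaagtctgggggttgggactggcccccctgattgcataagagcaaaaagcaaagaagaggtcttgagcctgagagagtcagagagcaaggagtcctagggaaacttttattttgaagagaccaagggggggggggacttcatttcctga
The window of Kit held GGGCGG 1 time, and those of Kcnn3 and Pdgfra held it 0 times. Among all promoter windows of the RefSeq table, 20.9% of those cut to the length of the Kit window and 32.7% of those of 250 bases held it. The letters TATAAA and CCGGAA and the CArG box were searched on both strands in the same windows. None of them was found in these 3 windows, and 12.4%, 12% and 1.47% of all windows of 250 bases held them. The matched letters overlapped no other motif searched. A match is a run of letters only.

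The libraries held from 24.8 to 36.3 M counts. Levels are given as CPM, counts scaled by the total count of the library. A gene with 0 counts could still lie at up to 3 counts, which is 0.0825 to 0.121 CPM here and covers counting error only. The smallest count of any of the 7 genes in any library was 51, so none of their values lies near that limit. The epithelial list, with Krt8, Muc2 and Epcam at its head, held from 7605 to 17452 CPM in all libraries, and the smooth muscle list was above 1884 CPM in all. C57BL/6 replicate 7 stood apart: among C57BL/6 it had the highest level of Kit, Kitl, Etv1, Pdgfra, P2ry1 and Kcnn3, the lowest level of Ano1 and the highest summed level of 12 smooth muscle genes (15842 CPM against 8297 to 11028 CPM in the other 7). In Winnie-Prolapse replicate 6, genes of milk proteins took 18.8% of the counts, and that library had the lowest level of each of the 7 genes in its group. The library total includes the milk protein counts, so this scaling by itself lowers the CPM of all other genes there. With the milk protein genes left out of the counts, the log2 fold change against C57BL/6 was -1.15 for Kit (adjusted p = 0.000243) and -1.50 for Kcnn3 (adjusted p = 0.000563). Winnie replicate 5 was close to C57BL/6 in an earlier analysis of these data, which was not tested here. Its summed level of enteric neuron genes (137 CPM) was the highest in Winnie. Its summed level of smooth muscle genes (8403 CPM) was below that of Winnie replicate 3 (9591 CPM), which was kept. The log2 fold changes that moved are therefore also given without C57BL/6 replicate 7, Winnie-Prolapse replicate 6 and Winnie replicate 5. Leaving out these 3 libraries that stand apart was an alternative chosen after seeing the data. All 3 are from females. Winnie replicate 5 was set apart for being close to C57BL/6, so leaving it out works toward larger differences of Winnie from C57BL/6.

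Among the 7 genes, Ano1 had the highest mean level per kilobase of exon in each group, followed by Kitl, and Etv1 had the lowest mean. Ano1 was above Kitl in 7 of 8 C57BL/6 libraries, and Kcnn3 above Etv1 in 5 of 7 Winnie libraries, while both orders held in all libraries of the other groups. In C57BL/6, the mean CPM per kilobase was 48.9 ± 14.5 for Ano1, 16.0 ± 3.35 for Kitl and 6.69 ± 1.45 for P2ry1 (SD, n = 8). Kit at 4.22 ± 1.56 and Pdgfra at 3.39 ± 0.552 were neighbours whose order did not hold in all libraries either, Kit being above Pdgfra in 5 of 8. Kcnn3 at 1.16 ± 0.623 and Etv1 at 0.715 ± 0.380 came last. In Winnie-Prolapse the order of the middle genes differed: Pdgfra at 4.94 ± 1.54 CPM per kilobase came after Kitl and above P2ry1 at 3.87 ± 1.03 in 6 of 7 libraries, and Kit at 1.78 ± 0.482 stood below both (SD, n = 7). In Winnie, Pdgfra at 4.29 ± 1.54 was above Kit at 2.92 ± 0.764 in 6 of 7 libraries and below P2ry1 in 5 of 7 (SD, n = 7).

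**Figure D1:**
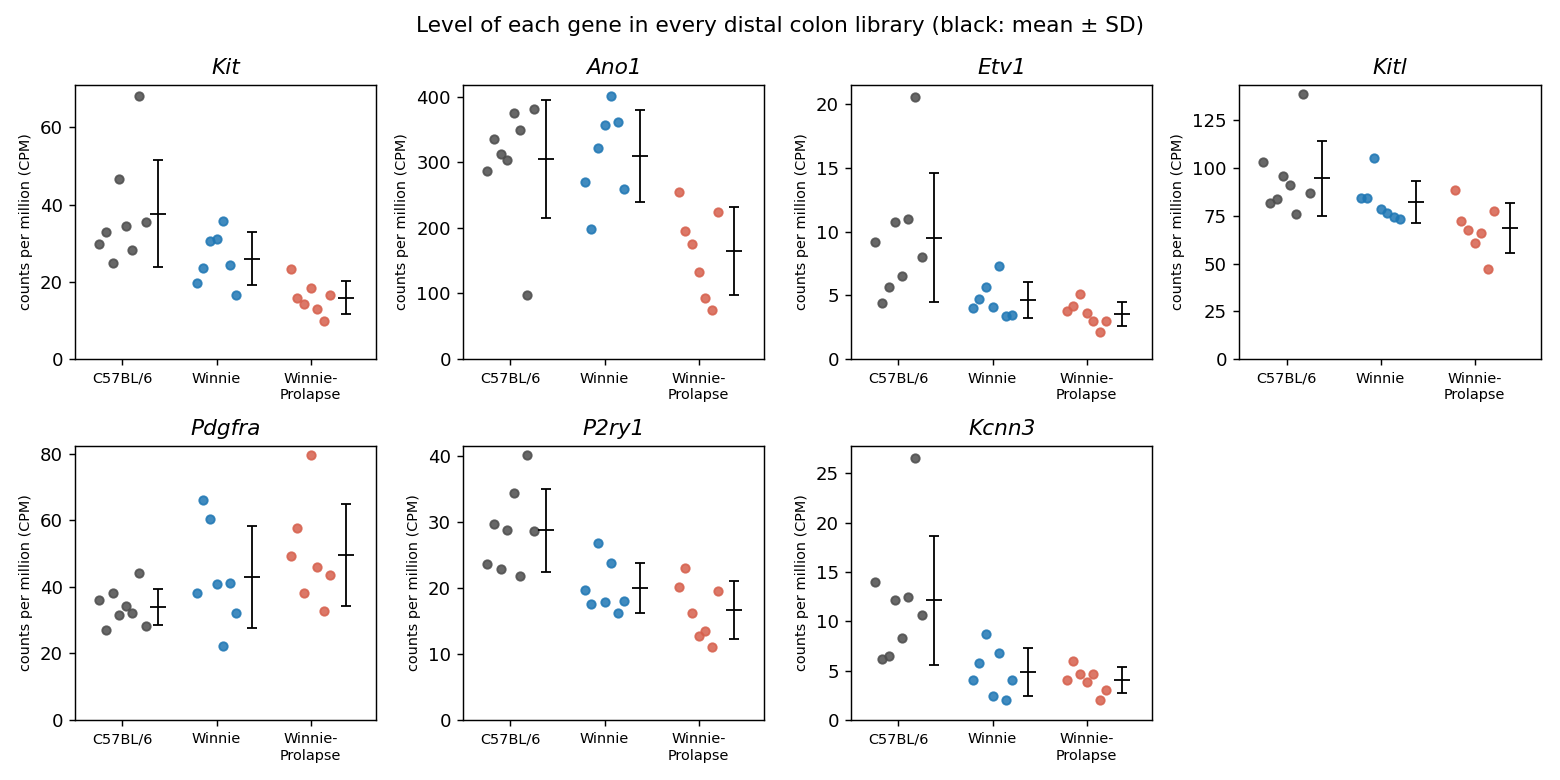
Level of each of the 7 genes in CPM (linear axis from 0) in every library, by group, with the mean and SD of the group in black (C57BL/6 n = 8, Winnie n = 7, Winnie-Prolapse n = 7). Kit and Kcnn3 levels in Winnie-Prolapse lie below all C57BL/6 levels, Pdgfra levels rise above them in 4 of 7 libraries, and the single low Ano1 point and the high points of other genes in C57BL/6 belong to replicate 7.

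The receptor gene Kit was lower in Winnie-Prolapse than in C57BL/6. In C57BL/6 its level was 25.0 CPM at the lowest, 33.8 CPM at the median and 68.1 CPM at the highest. In Winnie it was 16.6, 24.4 and 35.8 CPM, and in Winnie-Prolapse 9.75, 15.7 and 23.2 CPM. All 7 Winnie-Prolapse libraries were below all 8 C57BL/6 libraries, with a gap between the groups of less than 2 CPM, while Winnie overlapped both other groups. The log2 fold change of Winnie-Prolapse against C57BL/6 was -1.18 ± 0.21 (SE), a 2.26-fold lower level, with an adjusted p of 0.000256 in edgeR's quasi-likelihood test. It passed the threshold set here for a call, an adjusted p under 0.001 and a change of at least 1.5-fold. It did so in 15 of 15 fits that left out 1 library, with adjusted p-values from 0.000104 to 0.000793, and without the 3 libraries that stand apart the log2 fold change was -0.91 (adjusted p = 0.000236). Winnie against C57BL/6 gave -0.46 ± 0.20 (adjusted p = 0.101) and Winnie-Prolapse against Winnie -0.72 ± 0.18 (adjusted p = 0.028), neither of which passed it. In whole tissue, fewer cells of a type and less RNA per cell cannot be told apart.

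Kitl, the gene of the KIT ligand, is made in the gut by smooth muscle and other cells around the pacemaker cells. Its level was 76.1, 89.0 and 139 CPM (lowest, median, highest) in C57BL/6, 73.1, 78.6 and 105 CPM in Winnie and 47.2, 67.6 and 88.7 CPM in Winnie-Prolapse. The 3 groups overlapped. Winnie-Prolapse against C57BL/6 gave a log2 fold change of -0.39 ± 0.14 (adjusted p = 0.0268), Winnie against C57BL/6 one of -0.12 ± 0.11 (adjusted p = 0.436) and Winnie-Prolapse against Winnie one of -0.26 ± 0.11 (adjusted p = 0.135). None reached 1.5-fold. Without the 3 libraries that stand apart, Winnie-Prolapse against C57BL/6 gave -0.22 (adjusted p = 0.107) and Winnie against C57BL/6 gave 0.00056.

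Ano1 had about the same mean level in Winnie as in C57BL/6 and a lower one in Winnie-Prolapse. The levels were 97.3, 324 and 381 CPM (lowest, median, highest) in C57BL/6, 199, 322 and 402 CPM in Winnie and 75.5, 176 and 255 CPM in Winnie-Prolapse. The lowest C57BL/6 value came from replicate 7, and the next lowest of that group was 287 CPM, above all 7 Winnie-Prolapse libraries. Winnie against C57BL/6 gave a log2 fold change of 0.11 ± 0.23 (adjusted p = 0.743), which changed sign to -0.025 without C57BL/6 replicate 7. The change was -0.81 ± 0.28 in Winnie-Prolapse against C57BL/6 (adjusted p = 0.0215). Against Winnie it was -0.92 ± 0.25 (adjusted p = 0.036), so neither passed the threshold. Without the 3 libraries that stand apart, Winnie-Prolapse against C57BL/6 gave -0.82 (adjusted p = 0.00354).

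Etv1 was a low gene with a wide spread in C57BL/6, at 4.38, 8.60 and 20.6 CPM (lowest, median, highest). In Winnie it was 3.39, 4.05 and 7.32 CPM and in Winnie-Prolapse 2.14, 3.60 and 5.11 CPM. In Winnie-Prolapse 6 of 7 libraries lay below all C57BL/6 libraries. The log2 fold change was -1.35 ± 0.30 in Winnie-Prolapse against C57BL/6 (adjusted p = 0.00136), not past the threshold by edgeR, and -0.96 ± 0.28 in Winnie against C57BL/6 (adjusted p = 0.0214). It passed without C57BL/6 replicate 2 (adjusted p = 0.000457) and without Winnie-Prolapse replicate 3 (adjusted p = 0.00069), with DESeq2 (adjusted p = 3.24e-05), with all 3 groups in 1 fit (adjusted p = 0.000301) and without TMM factors (adjusted p = 0.000845). Without the 3 libraries that stand apart it was -0.999 (adjusted p = 0.00298). Winnie-Prolapse against Winnie gave -0.38 ± 0.20 (adjusted p = 0.222).

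Pdgfra, which marks the second type of interstitial cell, was the only gene of the 7 with a higher level in Winnie-Prolapse than in C57BL/6. Its level was 27.0, 33.1 and 44.0 CPM (lowest, median, highest) in C57BL/6, 22.05, 40.8 and 66.1 CPM in Winnie and 32.6, 46.0 and 79.6 CPM in Winnie-Prolapse. The groups overlapped, and 4 of 7 Winnie-Prolapse libraries lay above all C57BL/6 libraries. The log2 fold change was 0.60 ± 0.14 in Winnie-Prolapse against C57BL/6 (adjusted p = 0.0021), which did not pass the threshold by edgeR. It passed with DESeq2 (0.61, adjusted p = 0.000187), without C57BL/6 replicate 7 (0.67, adjusted p = 0.000618) and without the 3 libraries that stand apart (0.73, adjusted p = 0.000379). It was under 1.5-fold without TMM factors (0.55, adjusted p = 0.00965) and with sex as a covariate (0.58, adjusted p = 0.00329). Fits that left out 1 library gave 0.49 to 0.67. Winnie against C57BL/6 gave 0.41 ± 0.18 (adjusted p = 0.105), but 0.59 without the 3 libraries (adjusted p = 0.00475), 0.73 in males alone (adjusted p = 0.0212) and 0.10 in females alone (adjusted p = 0.849). The highest C57BL/6 level (44.0 CPM, replicate 7) and the lowest Winnie level (22.05 CPM, replicate 5) were both from females that stand apart. Winnie-Prolapse against Winnie gave 0.19 ± 0.20 (adjusted p = 0.565).

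P2ry1, the purine receptor gene, was lower by less than 2-fold. Its level was 21.7, 28.7 and 40.1 CPM (lowest, median, highest) in C57BL/6, 16.2, 18.0 and 26.8 CPM in Winnie and 11.1, 16.2 and 23.0 CPM in Winnie-Prolapse. In Winnie-Prolapse 6 of 7 libraries were below all C57BL/6 libraries. Log2 fold changes were -0.71 ± 0.16 (adjusted p = 0.00162) for Winnie-Prolapse against C57BL/6, -0.45 ± 0.13 (adjusted p = 0.0211) for Winnie against C57BL/6 and -0.26 ± 0.15 (adjusted p = 0.264) for Winnie-Prolapse against Winnie. None passed the threshold by edgeR. Winnie-Prolapse against C57BL/6 passed with DESeq2 (adjusted p = 0.000142) and with all 3 groups in 1 fit (adjusted p = 0.000453). Without the 3 libraries that stand apart, Winnie-Prolapse against C57BL/6 gave -0.56 (adjusted p = 0.00684), which is under 1.5-fold.

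Kcnn3, the SK3 channel gene, had the largest fitted fold change of the 7 genes in both comparisons with C57BL/6. Its level was 6.19, 11.4 and 26.6 CPM (lowest, median, highest) in C57BL/6, 1.98, 4.05 and 8.68 CPM in Winnie and 2.06, 4.05 and 6.01 CPM in Winnie-Prolapse. All 7 Winnie-Prolapse libraries were below all C57BL/6 libraries, by a gap of less than 1 CPM. The log2 fold change of Winnie-Prolapse against C57BL/6 was -1.53 ± 0.30 (adjusted p = 0.000568), which passed the threshold. That call was lost in 8 of 15 fits that left out 1 library, with adjusted p-values up to 0.00148: without C57BL/6 replicate 1, 4 or 6, and without Winnie-Prolapse replicate 1, 4, 5, 6 or 7. The log2 fold changes in those 8 fits were -1.42 to -1.55. The call was also lost with limma-voom (-1.38, adjusted p = 0.0018) and with sex as a covariate (-1.49, adjusted p = 0.00115). Without the 3 libraries that stand apart the log2 fold change was -1.14 (adjusted p = 0.000729). Winnie against C57BL/6 gave -1.28 ± 0.34 (adjusted p = 0.0144) and Winnie-Prolapse against Winnie -0.23 ± 0.28 (adjusted p = 0.62), and neither passed.

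**Figure D2:**
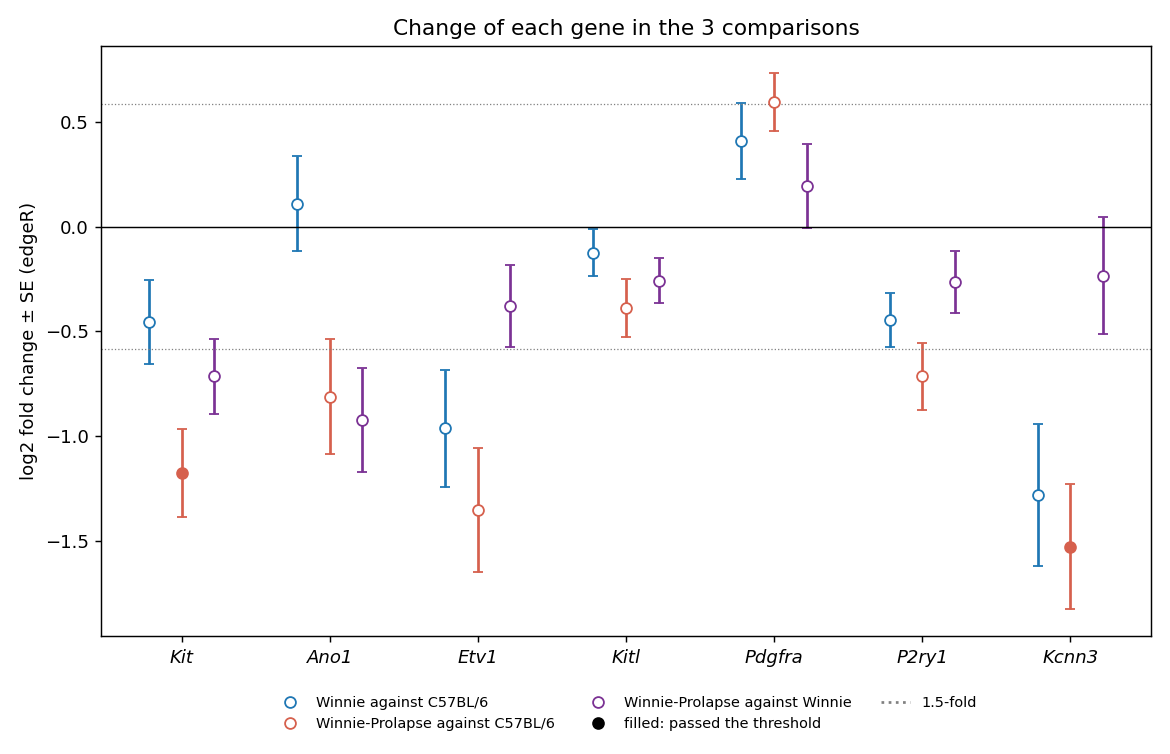
Log2 fold change of each of the 7 genes (vertical axis, edgeR) with its SE in the 3 comparisons, shown by colour. Filled points passed the threshold, and dotted lines mark 1.5-fold. The only filled points are Kit at -1.18 and Kcnn3 at -1.53 in Winnie-Prolapse against C57BL/6, and Pdgfra is the only gene above 0 in all 3 comparisons.

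Across the 7 genes, 2 passed the threshold in Winnie-Prolapse against C57BL/6, both lower, where 18.3% of 17397 genes tested passed it, 8.47% of them lower and 9.84% higher. The groups did not overlap for 2 of 7, against 16% of all genes tested. At a looser threshold, an adjusted p under 0.05 and 1.5-fold, 5 were lower (Kit, Ano1, Etv1, P2ry1 and Kcnn3) and 1 was higher (Pdgfra), where 17.7% of genes tested were lower and 16.7% higher. Among these, Ano1 no longer passed the looser threshold without Winnie-Prolapse replicate 5 (adjusted p = 0.0511). Pdgfra was under 1.5-fold without TMM factors (0.55) and with sex as a covariate (0.58), and P2ry1 without the 3 libraries that stand apart (-0.56). In Winnie against C57BL/6, 0 of 7 passed the main threshold by edgeR, and also 0 by DESeq2 and by limma-voom, where 0.0925% of 17289 genes did. That background rests on single libraries: without Winnie replicate 5, 436 genes passed higher and 241 lower, with 0 of the 7 among them. At the looser one, 2 were lower, Etv1 and Kcnn3, where 8.53% of genes were lower and 7.42% higher. Unadjusted p-values in that comparison were under 0.05 for 5 of the 7 and for 6901 of the 17289 genes tested. In Winnie-Prolapse against Winnie, 0 of 7 passed the main threshold, where 0% of 17041 genes did, although 4743 genes had an unadjusted p under 0.05 and DESeq2 called 482 genes higher and 162 lower, with 0 of the 7 among them. At the looser threshold 2 were lower, Kit and Ano1, where 2.72% of genes were lower, but without the 3 libraries that stand apart their adjusted p-values were 0.111 and 0.126. Over the 12 alternative settings, their log2 fold changes were -1.02 to -0.44 for Kit and -1.38 to -0.45 for Ano1. The comparisons share samples, so their values are given side by side only.

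The difference of either Winnie group from C57BL/6 did not vary detectably between males and females for these genes. The interaction of sex with either Winnie group passed an adjusted p of 0.05 for 0 of 7 genes, and for 0 of 18911 genes tested by edgeR, and for 0 of the 7 by limma-voom. Of the 7 genes, Etv1 in Winnie-Prolapse had the smallest unadjusted p of that term (0.0367, edgeR adjusted p = 0.96), with a log2 fold change 1.13 ± 0.50 higher in males than in females. Within males alone the log2 fold change of Kit in Winnie-Prolapse against C57BL/6 was -0.87 (adjusted p = 0.0164) and within females -1.52 (adjusted p = 0.0121). For Kcnn3 it was -1.04 (adjusted p = 0.0345) in males and -2.04 (adjusted p = 0.0139) in females, and for Etv1 -0.81 (adjusted p = 0.089) and -1.93 (adjusted p = 0.0128), so no call was made within either sex, where 3 or 4 mice stood in each group. In Winnie against C57BL/6, Kcnn3 gave -0.66 in males (adjusted p = 0.182) and -1.84 in females (adjusted p = 0.184). Other values that passed an adjusted p of 0.05 over both sexes and moved by over 1.5 times within one were, in males, Etv1 (-0.63) and P2ry1 (-0.28) in Winnie against C57BL/6 and Kit (-0.44) and Ano1 (-0.45) in Winnie-Prolapse against Winnie, and in females Pdgfra (0.38) in Winnie-Prolapse against C57BL/6. The libraries that stand apart were all from females. C57BL/6 replicate 7 had the highest Kit, Kcnn3 and Etv1 levels of its group and Winnie-Prolapse replicate 6 the lowest of its own. The values within females therefore rest in part on single libraries.

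Ratios between the genes within each library do not depend on the total count. Of 13 ratios in 3 comparisons, tested by two-sided exact permutation tests of log2 ratios and adjusted over 39 tests, 7 passed an adjusted p of 0.05 in Winnie-Prolapse against C57BL/6, 5 in Winnie against C57BL/6 and 2 in Winnie-Prolapse against Winnie. Without the 3 libraries that stand apart the counts were also 7, 5 and 2, but in Winnie against C57BL/6 the ratio of Kit to Pdgfra came in (adjusted p = 0.00826) and that of Ano1 to smooth muscle dropped out (adjusted p = 0.0561). Kit relative to Pdgfra fell by 1.73 on the log2 scale from C57BL/6 (mean 0.09 ± 0.43, SD, n = 8) to Winnie-Prolapse (mean -1.63 ± 0.35, SD, n = 7), with an adjusted p of 0.00121 by the exact test. P2ry1 relative to Pdgfra fell by 1.31 and Kcnn3 relative to Pdgfra by 1.99, with the same adjusted p. The ratios to Pdgfra share that gene, whose own log2 fold change was 0.60, so they are not independent results. In each of these 3 ratios all 7 Winnie-Prolapse libraries were below all C57BL/6 libraries, and the raw p of 0.0001554 is the smallest that the exact test can give. Kitl relative to Kit was 0.76 higher in Winnie-Prolapse than in C57BL/6 (adjusted p = 0.00519, exact permutation), so the ligand stood higher against its receptor in 6 of 7 libraries than in any C57BL/6 library. Ano1 relative to Kit (0.31, adjusted p = 0.7) and Etv1 relative to Kit (-0.09, adjusted p = 0.731) did not pass in the same comparison and changed sign without C57BL/6 replicate 7 (-0.047) and without C57BL/6 replicate 6 (0.014), in that order.

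In Winnie against C57BL/6, Kcnn3 relative to Pdgfra was lower by -1.61 ± 0.39 on the log2 scale (SE, adjusted p = 0.00833, exact permutation) and P2ry1 relative to Pdgfra by -0.79 ± 0.26 (adjusted p = 0.0268). For each, 6 of 7 Winnie libraries were below all C57BL/6 libraries. The P2ry1 ratio no longer passed without C57BL/6 replicate 2, 4, 5, 7 or 8 or without Winnie replicate 2, 4 or 6, with adjusted p-values from 0.05 to 0.0545. Kit relative to Pdgfra gave -0.78 ± 0.30 (adjusted p = 0.0561), and it passed without C57BL/6 replicate 3 (adjusted p = 0.0406) and without Winnie replicate 5 (adjusted p = 0.00433). Winnie replicate 5 had the highest value of this ratio in its group (0.70). It was set apart for being close to C57BL/6, so leaving it out works toward a larger difference. In Winnie-Prolapse against Winnie, Kit relative to Pdgfra was lower by -0.95 ± 0.29 (adjusted p = 0.0101, exact permutation).

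**Figure D3:**
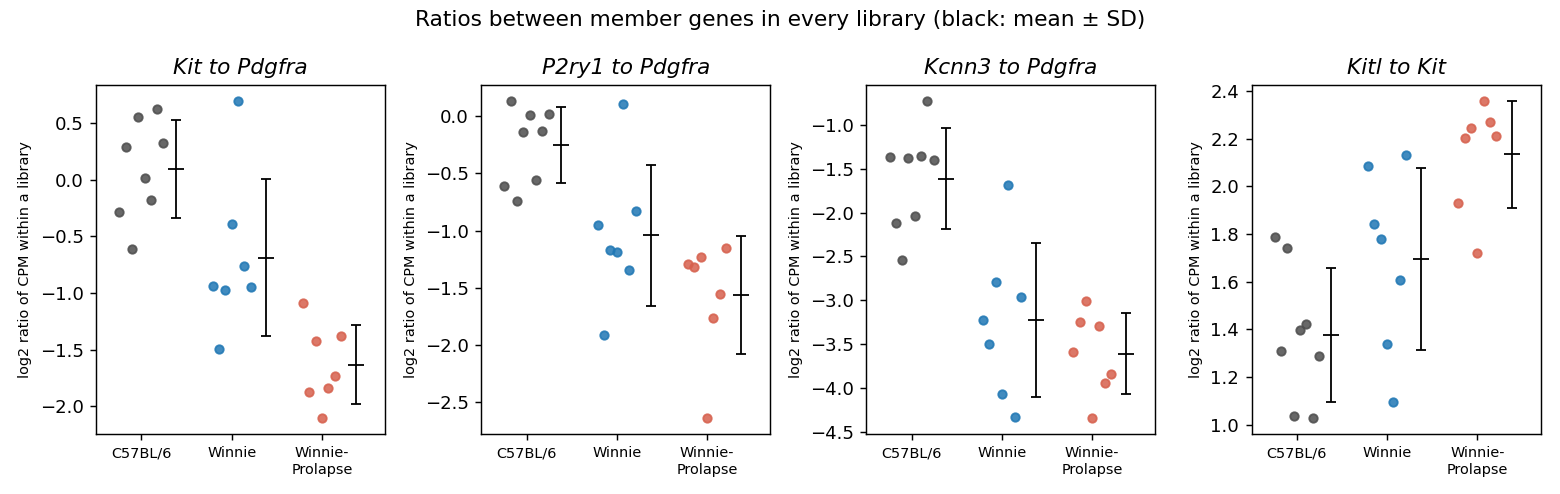
Log2 ratio of the CPM of 2 genes within each library (vertical axis), by group, with the mean and SD of the group in black (C57BL/6 n = 8, Winnie n = 7, Winnie-Prolapse n = 7). For the 3 ratios to Pdgfra all Winnie-Prolapse points lie below all C57BL/6 points, and the ratio of Kitl to Kit is higher in Winnie-Prolapse by 0.76 on average.

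Smooth muscle genes fell, and relative to their mean log2 level 3 of the 7 genes, Pdgfra, Kitl and P2ry1, were higher in Winnie-Prolapse than in C57BL/6 by the exact permutation test. In Winnie-Prolapse against C57BL/6, 12 of 12 genes of the smooth muscle list passed the threshold, all lower, with a median log2 fold change of -1.71 against -0.01 over all genes tested. Myh11, the smooth muscle myosin heavy chain gene, changed by -1.98 ± 0.25, Tagln, the gene of transgelin, by -1.93 ± 0.21 and Acta2, the gene of smooth muscle actin, by -1.64 ± 0.20. The summed level of the list was 8297 to 15842 CPM in C57BL/6, 2480 to 9591 CPM in Winnie and 1884 to 4041 CPM in Winnie-Prolapse. In Winnie against C57BL/6, 10 of 12 were lower at the looser threshold, with a median of -0.86. The share of muscle in each piece of colon was not measured, and its part in the levels of the 7 genes was not tested.

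Set against the mean log2 level of those 12 genes in the same library, none of the 7 genes was lower past the test. The list itself fell in both Winnie groups, so a gene that fell less than the list stands higher in this ratio. In Winnie-Prolapse against C57BL/6 the log2 fold changes of Kitl (-0.39) and P2ry1 (-0.71) were themselves below 0, and only that of Pdgfra (0.60) was above 0. In Winnie-Prolapse against C57BL/6, the ratio to smooth muscle was 2.31 ± 0.26 higher for Pdgfra, 1.34 ± 0.20 higher for Kitl (both with an adjusted p of 0.00121, exact permutation) and 1.002 ± 0.21 higher for P2ry1 (adjusted p = 0.00202). The ratio for Kit differed by 0.59 ± 0.28 (adjusted p = 0.0879), that for Ano1 by 0.89 ± 0.44 (adjusted p = 0.0879), that for Etv1 by 0.50 ± 0.26 (adjusted p = 0.143) and that for Kcnn3 by 0.32 ± 0.25 (adjusted p = 0.28), none of which passed. Without Winnie-Prolapse replicate 5 the ratios for Kit (0.70, adjusted p = 0.0406) and Ano1 (1.08, adjusted p = 0.0251) passed, both higher. In Winnie against C57BL/6, the ratios of Pdgfra (1.31 ± 0.37, adjusted p = 0.0103), Kitl (0.85 ± 0.27, adjusted p = 0.0138) and Ano1 (1.12 ± 0.45, adjusted p = 0.0268) were higher. The Ano1 ratio no longer passed without C57BL/6 replicate 4 or 7 or without Winnie replicate 4 or 6, with adjusted p-values from 0.0519 to 0.0701, nor without the 3 libraries that stand apart. In Winnie-Prolapse against Winnie, only the ratio of Kcnn3 passed among the 7, at 0.62 ± 0.19 (adjusted p = 0.0189).

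**Figure D4:**
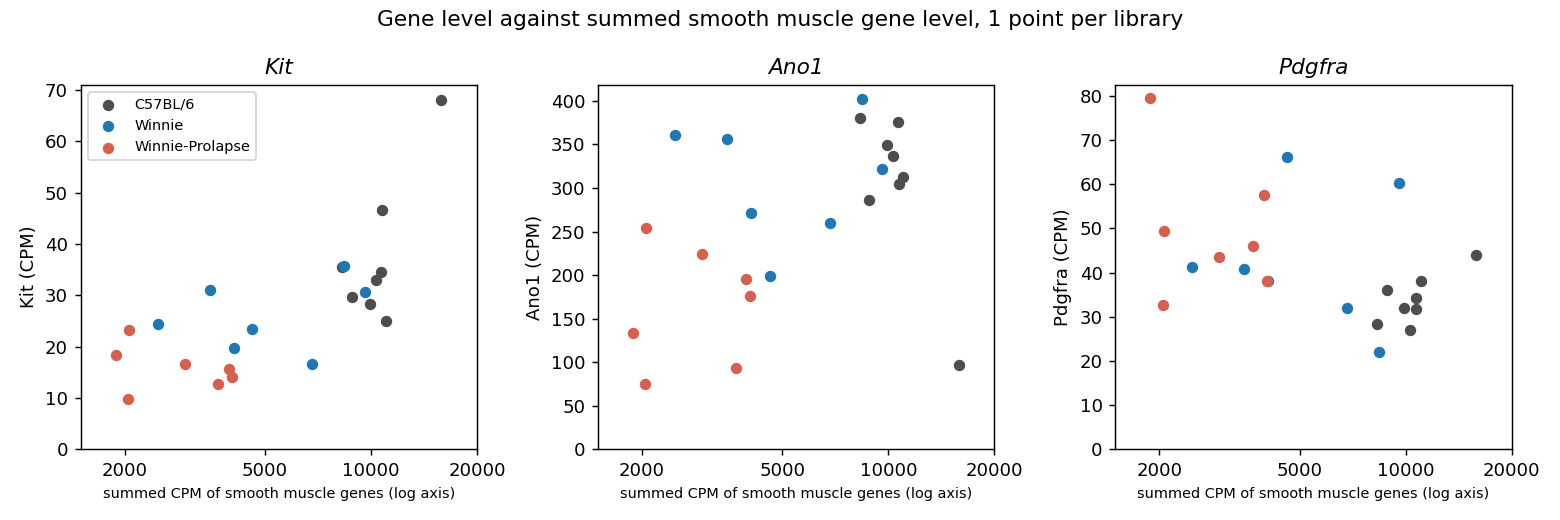
Level of Kit, Ano1 and Pdgfra (vertical axes, CPM) against the summed level of the 12 smooth muscle genes (horizontal axis, CPM, log scale), 1 point per library, coloured by group. Winnie-Prolapse libraries lie at 1884 to 4041 CPM of smooth muscle genes, and C57BL/6 replicate 7, at 15842 CPM, pairs the highest Kit level with the lowest Ano1 level of its group.

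Markers of the other cells that the tissue holds moved in both directions. In Winnie-Prolapse against C57BL/6, 8 of 10 enteric neuron genes passed the threshold, all lower, with a median log2 fold change of -1.99, among them Snap25 (-1.74) and Nos1 (-1.87), the gene of neuronal nitric oxide synthase, while Vip gave -1.23 (adjusted p = 0.0018). Of 6 enteric glia genes, 2 passed, both lower. Of 12 mast cell genes, 8 were tested and 5 passed, all higher. The summed level of the mast cell list was 5.07 to 7.96 CPM in C57BL/6, 8.63 to 74.1 CPM in Winnie and 46.8 to 262 CPM in Winnie-Prolapse. Much of that sum came from Il1rl1 (mean 76.3 CPM in Winnie-Prolapse), which other immune cells express too. By mean level over all libraries, Hdc (6.95 CPM) and Cma1 (2.61 CPM) came next in that list. Their medians in C57BL/6 were 0.205 CPM for Hdc and 1.93 CPM for Cma1. The mast cell protease gene Cpa3 had a mean of 0.958 CPM and the receptor gene Ms4a2 of 0.146 CPM in Winnie-Prolapse. Of 15 mucosal fibroblast genes, 2 passed, both higher, and the median of that list was 0.09. At the looser threshold 5 were higher and 1 lower. The 3 with the highest level did not pass, with Col3a1 at 0.62, Dcn at 0.19 and Cd81 at 0.09. The 2 that passed, named after their values were seen, were Bmp7 (1.66) and Wnt5a (1.12). The summed level of the fibroblast list was 1032 to 1300 CPM in C57BL/6 and 809 to 2398 CPM in Winnie-Prolapse. Of 7 leukocyte genes 4 passed, all higher, of 7 innate lymphoid genes 3 were tested and 1 passed, higher, of 8 squamous epithelium genes 4 were tested and all 4 passed, higher, and of 4 mesothelium genes 0 passed by edgeR. The part of these cells in the levels of Kit and Pdgfra was not tested. Of 8 epithelial genes, 0 passed by edgeR, and 2 did so at the looser threshold, Krt20 higher (0.87) and Muc2 lower (-0.84).

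Genes of calcium handling and cyclic GMP signalling in interstitial and muscle cells differed in direction. Of 16 such genes, 7 passed the threshold lower and 1 higher in Winnie-Prolapse against C57BL/6, with a median log2 fold change of -0.81. The summed level of the list was 1166 ± 81.3 CPM in C57BL/6 (SD, n = 8) and 1205 ± 152 CPM in Winnie-Prolapse (SD, n = 7). Of the 3 with the highest level, Atp2a2, the gene of the calcium pump of the endoplasmic reticulum, rose by 0.85 ± 0.12 (adjusted p = 3.75e-05). Slc12a2, the gene of the sodium-potassium-chloride cotransporter that loads pacemaker cells with chloride, gave 0.63 ± 0.16 (adjusted p = 0.00361), and Stim1, the gene of a calcium sensor, -0.47 ± 0.17 (adjusted p = 0.0309). Slc12a2 and Atp2a2 are also highly expressed in epithelium. Among 18 genes of KIT signalling, 2 passed higher and 1 lower, with a median of 0.14. The 3 with the highest level did not pass: Src gave -0.15, Pik3r1 -0.17 and Shc1 0.24.

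Among genes of the PDGF system, those of 2 ligands fell. Pdgfa, which encodes a ligand of PDGFRα, changed by -0.60 ± 0.12 in Winnie-Prolapse against C57BL/6 (adjusted p = 0.000479), and Pdgfd by -1.64 ± 0.22 (adjusted p = 2.71e-05). Both passed the threshold, lower, and neither overlapped between the groups. Pdgfb gave 0.60 ± 0.25 (adjusted p = 0.0533), Pdgfc 0.40 ± 0.39 (adjusted p = 0.397) and Pdgfrb, the gene of the sister receptor, 0.72 ± 0.23 (adjusted p = 0.0164), and none of these passed. Of 10 genes in that list, 1 passed higher, Csf1r (1.46 ± 0.21), a related receptor gene of macrophages, and 2 passed lower. Pdgfa lost its call in 6 of 12 alternative settings, with log2 fold changes from -0.61 to -0.51, among them the fits of 1 sex alone and the fit without the 3 libraries that stand apart. It also lost it without C57BL/6 replicate 1, 3, 4, 5 or 7 and without Winnie-Prolapse replicate 2, 4, 5 or 6, with adjusted p-values up to 0.00176.

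The relatives of Kcnn3 that passed the threshold were all lower. Kcnn2, the gene of SK2, was at 0.261 CPM on average in Winnie-Prolapse and 1.81 CPM in C57BL/6, a log2 fold change of -2.71 ± 0.43 (adjusted p = 0.000116). Kcnn1 gave -0.78 ± 0.28 (adjusted p = 0.0298), and Kcnn4, the intermediate-conductance channel gene, 0.38 ± 0.18 (adjusted p = 0.0817). Of 7 calcium-activated potassium channel genes other than Kcnn3, 3 passed, all lower, with a median of -0.78: Kcnn2, Kcnmb1 (-1.11) and Kcnmb2 (-1.56). Kcnmb1 encodes the β1 subunit of the large-conductance channel of smooth muscle, whose pore gene Kcnma1 gave -0.41 (adjusted p = 0.0738).

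Among the other anoctamins, the protein family of Ano1, 1 of 8 tested passed in Winnie-Prolapse against C57BL/6, Ano10 (-0.85 ± 0.14, adjusted p = 0.000113). Ano6 gave 0.67 ± 0.17 (adjusted p = 0.00416) and Ano9 -0.03 ± 0.17 (adjusted p = 0.906). The ETS factors most like Etv1 gave log2 fold changes near 0, 0.05 ± 0.26 for Etv4 (adjusted p = 0.879) and -0.02 ± 0.38 for Etv5 (adjusted p = 0.977). Both changed sign between alternative settings. Dusp6 (1.65 ± 0.29) and Spry4 (1.83 ± 0.32), feedback inhibitors of ERK and receptor kinase signalling, were the 2 of 6 genes in their list that passed, both higher, and Spry2 gave 0.43 ± 0.19 (adjusted p = 0.0721). Of 19 purinergic genes besides P2ry1, 1 passed higher, Entpd1 (1.29), which encodes an ATP-degrading enzyme, and 1 lower, P2rx2 (-1.94), a receptor gene of neurons. The 3 with the highest level, Nt5e (0.54, adjusted p = 0.0727), P2rx4 (-0.21, adjusted p = 0.246) and Entpd8 (-0.63, adjusted p = 0.0731), did not pass.

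Likeness of pattern was measured as the mean absolute difference of centred log2 CPM over the 22 libraries, over 17768 genes. Among the 7 genes, the nearest pairs were Kitl and P2ry1 (0.22), Etv1 and Kcnn3 (0.27), Kit and P2ry1 (0.29) and Kit and Etv1 (0.31). The measure is small for any pair of genes that vary little: the mean absolute deviation of Kitl from its own mean was 0.19 and that of P2ry1 0.30, so Kitl lay no nearer to P2ry1 than to a flat line. For Kit, Etv1 and Kcnn3 that deviation was 0.48, 0.56 and 0.68. The farthest pair was Pdgfra and Kcnn3 (0.93). So Pdgfra was far from Kcnn3, although both are known from the same interstitial cell, and Etv1 was nearer to Kcnn3 than to Ano1 (0.61). The points share libraries and depth, and the values are descriptions. Over all genes, the nearest to Kit were Rprm (0.22), Tbc1d19 (0.22) and Ldoc1l (0.22), where the median gene was at 0.55. The nearest to Ano1 were Nmnat3 (0.20), Acsm3 (0.20) and Camk1d (0.20). The nearest to Etv1 were Gng4 (0.17), Ahi1 (0.18) and Scg2 (0.19), and the nearest to Kcnn3 were Adcyap1r1 (0.21), the gene of the PACAP receptor, Reep1 (0.25) and Erc2 (0.25). The nearest to Pdgfra were Dag1 (0.15), Lgmn (0.16) and Plxna1 (0.16), the nearest to P2ry1 were Sesn1 (0.15), Pigyl (0.16) and Fzd8 (0.16), and the nearest to Kitl were Gpatch2 (0.12), Ppp1r12a (0.13) and Prkca (0.13).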

How the data were processed

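Distal colon RNA of 22 mice in 3 groups was analysed, with groups and sexes read from the sample labels. The authors extracted RNA, selected poly(A) RNA, prepared libraries, sequenced them in paired ends and ran the RNAsik pipeline. The submitters' processing notes name GRCm38, STAR, featureCounts and limma. The deposited table holds raw read counts per gene, as whole numbers, for 46078 genes. All columns of per-sample values were mapped. Neither the annotation release, the strand setting nor the rule for multimapping reads was given in the sources used here. Nothing in the labels states whether libraries shared a batch. The labels give 7 Winnie libraries, while the study's methods name 6 Winnie mice for colon RNA. Which library that count leaves out is not given in the sources used here, and all 7 were used.

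The main test was the quasi-likelihood F test of edgeR 4.0.16 (R 4.3.3) on the counts, with TMM normalization and the filterByExpr filter, each comparison on its own 2 groups, and with Benjamini-Hochberg adjustment over all genes tested. A gene passed at an adjusted p under 0.001 and a change of at least 1.5-fold, the limits of the study. The interaction of sex and group used 1 fit over all libraries. CPM was counts scaled by library totals, and CPM per kilobase was divided by exon length in GENCODE M21. Log2 ratios had a prior count of 2 and were tested by exact permutation, adjusted over 39 tests at 0.05. The tests were tested on simulated data. For the edgeR test these data gave every gene the same variability and held no library that stands apart, unlike the real libraries. Within groups, library pairs differed beyond sampling noise (lowest chi-square per degree of freedom 28.8), so none was counted as a duplicate.

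The 7 genes and the 18 gene lists were chosen with earlier results of these data known. Named were the 7 genes, the 3 genes of highest mean CPM of each list, a fixed set of relatives of the 7, and the 3 genes nearest in pattern to each. Other list genes named (Kcnmb2, Entpd1, P2rx2, Bmp7, Wnt5a, Krt20, Cpa3 and Ms4a2) were chosen after their values were seen. In the lists, 3 genes were found by an older symbol. Alternatives were no TMM factors, DESeq2 1.42.0, limma-voom (limma 3.58.1), no low-count filter, a joint fit of all 3 groups, a minimum of 10 counts in every library, a sex covariate, 1 sex alone, an adjusted p under 0.05, a prior count of 0.5 and leaving out each library. Leaving out 3 libraries that stand apart and leaving out milk protein genes were chosen after seeing the data.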

Additional observations from a re-analysis of the deposited data

Results flagged for a closer look

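Of 21 sets of levels, 1 for each of the 7 genes in each group, 5 held a library far from the others by Dixon's test, where chance gives about 1 in 20. C57BL/6 replicate 7 was the high one for Kitl (139 CPM, the next library at 103 CPM), Etv1 (20.6 CPM, next 11.01 CPM) and Kcnn3 (26.6 CPM, next 14.0 CPM), and the low one for Ano1 (97.3 CPM, next 287 CPM). Winnie replicate 3 was the high one for Kitl (105 CPM, next 84.4 CPM). Kit, Pdgfra and P2ry1 had no such library in any group.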

How the results depend on the processing

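No paired analysis was possible because replicates were numbered only by accession order, which links no mice of different groups. In Winnie-Prolapse against C57BL/6, where 2 of the 7 genes passed and over all genes 1712 were higher and 1474 lower, 5 passed with DESeq2 (2727 and 2277 over all genes), 1 with limma-voom (1563 and 1491), 1 with sex as a covariate (1681 and 1392), 4 with all 3 groups in 1 fit (1985 and 1578), 0 in males only (248 and 59), 0 in females only (224 and 31) and 6 at an adjusted p under 0.05 (2902 and 3079). At that last threshold 2 passed in Winnie against C57BL/6 and 2 in Winnie-Prolapse against Winnie. Over all genes, DESeq2 called 758 higher and 445 lower in Winnie against C57BL/6, where edgeR called 15 and 1 and limma-voom 0 and 0. Leaving out 1 library gave 1 to 3 genes in Winnie-Prolapse against C57BL/6 and 0 to 0 in the other comparisons. Log2 ratios passing were 3 to 7 in Winnie against C57BL/6, 7 to 9 in Winnie-Prolapse against C57BL/6 and 2 to 3 in Winnie-Prolapse against Winnie without 1 library, and 0 in all 3 comparisons in males only or in females only, where the fewer samples limit the smallest p.

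In Winnie against C57BL/6, Kitl turned to 0.021 in males only and 0.00056 without the 3 libraries that stand apart, and Ano1 to -0.21 and -0.084, with -0.025 to 0.21 when 1 library was left out. In Winnie-Prolapse against C57BL/6, Etv5 turned to 0.52 with DESeq2, 0.29 with limma-voom, 0.0078 with no filter, 0.058 with sex as a covariate, 0.0040 with all 3 groups in 1 fit, 0.51 in males only, 0.54 without the 3 libraries and 0.014 without milk protein genes, and Etv4 to -0.020 with limma-voom, -0.0083 with sex as a covariate and -0.18 in females only. Pik3r1 turned to 0.091 in females only and Ano9 to 0.15 without the 3 libraries. With 1 library left out, the ranges were -0.12 to 0.56 for Etv5, -0.12 to 0.17 for Etv4, -0.10 to 0.078 for Ano9 and -0.089 to 0.73 for Pdgfc.

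Among log2 ratios, in males only Kcnn3 to smooth muscle in Winnie against C57BL/6 turned to 0.13, Etv1 to Kit in Winnie-Prolapse against C57BL/6 to 0.12 and Ano1 to smooth muscle in Winnie-Prolapse against Winnie to 0.49. In females only Etv1 (-0.043) and Kcnn3 (-0.19) to smooth muscle in Winnie-Prolapse against C57BL/6, and Kit (-0.39) and Etv1 (-0.050) to smooth muscle in Winnie-Prolapse against Winnie, turned. With 1 library left out, Ano1 to Kit (-0.047 to 0.40) and Etv1 to Kit (-0.21 to 0.014) in Winnie-Prolapse against C57BL/6, Etv1 to smooth muscle in Winnie against C57BL/6 (-0.0050 to 0.24) and Kit to smooth muscle in Winnie-Prolapse against Winnie (-0.12 to 0.23) changed sign. The cause was not tested. Of these results, none passed its threshold. Depth did not limit the 7 genes, the lowest of which had 51 counts.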
